A study of Mus musculus with 12 samples.

Results

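Albumin and 9 acute phase plasma protein genes were followed across mouse tumours of the bile ducts within the liver (intrahepatic cholangiocarcinoma). The members are the rows of the deposited FPKM table named Alb, Saa1, Saa2, Saa3, Hp, Hpx, Orm1, Fga, Fgb and Fgg, 10 of 24421 gene symbols. Total RNA of whole 425-ICC tumour tissue had been sequenced after 8 days of treatment, in 3 libraries per group. The GC group had chemotherapy, where GC is taken to stand for gemcitabine and cisplatin. The ICB group had 2 checkpoint antibodies, against CTLA-4 and PD-1 by the title. The Combination group had GC and ICB together, and the Control group had control IgG. All groups carried the same 425-ICC tumour, and the labels give neither its genotype and site of growth nor the strain or age of the mice. Bulk tissue holds host cells beside tumour cells, so fewer cells of a type and less RNA per cell cannot be told apart.

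Albumin is the main protein of blood plasma and is made by hepatocytes. Acute phase proteins are plasma proteins whose synthesis in the liver is raised by the cytokines interleukin 6 and interleukin 1, acting through STAT3, C/EBP and NF-kB factors. Albumin itself is a negative acute phase protein, whose output falls during inflammation. Of the mouse serum amyloid A genes, Saa1 and Saa2 are the hepatocyte forms carried on high density lipoprotein, while Saa3 is known mainly from macrophages, adipocytes and inflamed epithelia outside the liver.

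The libraries differed in tissue content beyond the groups. Per library the FPKM total was 547146 to 660067, with 14533 to 16442 symbols above 0. Combination replicate 1 held small intestinal transcripts, with the intestinal fatty acid carrier Fabp2 at 1779 FPKM against at most 70.3 FPKM elsewhere. GC replicate 2 and Control replicate 2 held skeletal muscle transcripts, with the muscle actin Acta1 at 937 FPKM in GC replicate 2, 348 FPKM in Control replicate 2 and at most 4.80 FPKM elsewhere. Hepatocyte enzymes and factors (a list of 20 genes without plasma proteins) had a mean log2(FPKM + 1) of 2.64, 3.04 and 4.57 in GC, 1.37, 2.30 and 2.15 in ICB, 3.04, 8.45 and 7.34 in Combination and 0.85, 1.07 and 0.85 in Control, each in replicates 1 to 3. Markers of biliary and tumour cells were mixed: Spp1 lay between 276 and 7598 FPKM and Sox9 between 7.56 and 91.9 FPKM in all 12 libraries. The biliary keratin Krt19 lay between 1.54 and 48.3 FPKM in 10 libraries and was listed at 0 in Control replicates 2 and 3. These values stand beside every result on the hepatocyte forms, and their part in those results was not tested.

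The members sit at 6 places of the genome (GRCm38, GENCODE M21), and all are protein-coding genes. Saa3 (chr7:46711998-46715700), Saa1 (chr7:46740497-46742980) and Saa2 (chr7:46751790-46754313) lie within 42316 bases of chromosome 7. The fibrinogen genes Fgg (chr3:83007724-83015049), Fga (chr3:83026076-83033627) and Fgb (chr3:83040141-83049863) lie within 42140 bases of chromosome 3. Alb is at chr5:90460897-90476602, Hp at chr8:109575128-109579172, Hpx at chr7:105591613-105600137 and Orm1 at chr4:63344560-63348163. The sequences of the 200 bases before the RefSeq start of Saa1, Saa2, Saa3 and Alb are given because the 3 Saa neighbours were recorded at such different levels, with Alb as a hepatocyte promoter beside them. They come from RefSeq (GRCm38.p6), whose gene starts were used and differ from the GENCODE bounds for Saa2, Saa3 and Alb. They are read 5′ to 3′ on the strand of the gene, and capitals mark matches to the motifs searched.
Saa1: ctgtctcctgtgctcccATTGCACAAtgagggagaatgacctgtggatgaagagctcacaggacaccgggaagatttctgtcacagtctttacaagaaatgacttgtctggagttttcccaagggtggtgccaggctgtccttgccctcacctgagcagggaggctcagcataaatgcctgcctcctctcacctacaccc
Saa2: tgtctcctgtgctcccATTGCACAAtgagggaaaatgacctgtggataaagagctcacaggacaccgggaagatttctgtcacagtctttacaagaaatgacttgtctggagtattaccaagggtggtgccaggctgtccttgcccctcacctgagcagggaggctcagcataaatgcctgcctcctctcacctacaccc
Saa3: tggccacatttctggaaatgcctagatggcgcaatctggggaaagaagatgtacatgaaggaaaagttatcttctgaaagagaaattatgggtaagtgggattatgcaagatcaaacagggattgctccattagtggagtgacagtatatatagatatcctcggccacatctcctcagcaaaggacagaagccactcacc
Alb: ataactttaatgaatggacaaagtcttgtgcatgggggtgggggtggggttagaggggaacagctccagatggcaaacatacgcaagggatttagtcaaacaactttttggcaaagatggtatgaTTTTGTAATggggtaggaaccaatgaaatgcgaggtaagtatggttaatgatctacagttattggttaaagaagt
The windows are chr7:46742981-46743180 (minus strand) for Saa1, chr7:46751633-46751832 (plus strand) for Saa2, chr7:46715677-46715876 (minus strand) for Saa3 and chr5:90460670-90460869 (plus strand) for Alb. Saa1 and Saa2 shared 195 of 199 aligned bases, with an identical run of 65 bases. The longest run that Saa3 shared with either of them was 8 bases. Motifs were searched on both strands. The C/EBP letters TTNNGNAAT were in the windows of Alb, Saa1 and Saa2, and in 7.83% of 32851 windows of the same length. The STAT letters TTCNNNGAA were in Fgb (5.49% of all windows), and the NF-kB consensus was in 0 of the 8 member windows (6.07% of all windows). No match was found in the Saa3 window, which says only that these letters are not there.

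Whether a treatment moved these transcripts away from Control was read from each treated group in turn. The 9 genes other than Saa3 had one order of libraries at the top: Combination replicate 2 was the highest and Combination replicate 3 the second in 9 of 9, and the Control libraries took ranks 9 to 12. Saa3 stood in a different order, highest in ICB replicate 3 and Control replicate 1. By group mean, 7 of those 9 ran from Combination through GC and ICB to Control, and Saa1 and Saa2 had ICB above GC. Ranges of neighbouring groups overlapped in each of these orders except between Control and the group next above it. Saa3 ran from ICB through Control and GC to Combination, with overlap at each step.

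**Figure D1:**
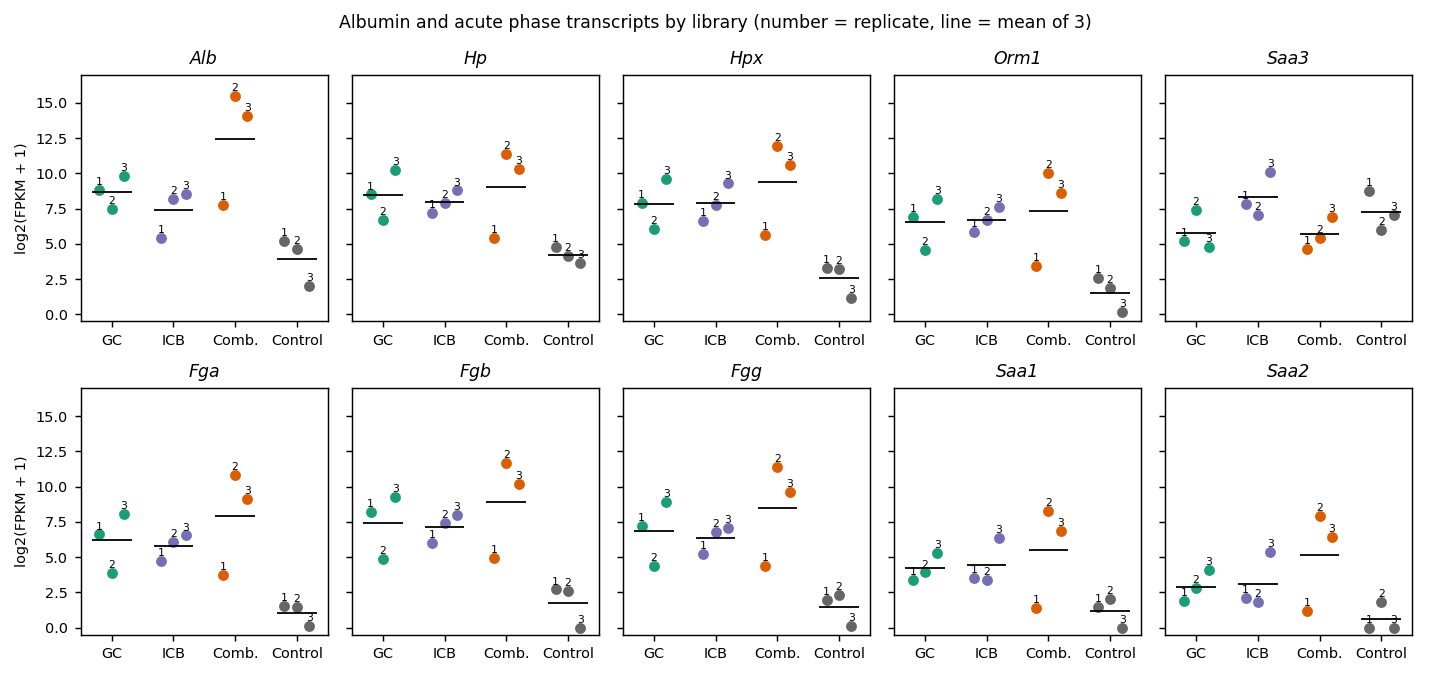
Level of each of the 10 genes as log2(FPKM + 1) in the 12 libraries, with points numbered by replicate, coloured by group, and a line at the mean of 3. Combination replicates 2 and 3 are the top points for 9 genes, while Saa3 is highest in ICB replicate 3 (1080 FPKM) and lowest in Combination replicate 1 (24.4 FPKM).

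Alb was recorded at 441, 174 and 893 FPKM in GC, at 41.7, 288 and 369 FPKM in ICB, at 217, 45399 and 16867 FPKM in Combination and at 35.2, 24.1 and 2.95 FPKM in Control. All 9 treated libraries were above all 3 Control libraries, and Combination was split between 1 library in the range of GC and ICB and 2 far above it. The difference from Control on the log2(FPKM + 1) scale was 4.74 ± 1.69 (SE) in GC, 3.44 ± 1.69 in ICB and 8.49 ± 1.69 in Combination (limma adjusted p = 0.358, 1 and 0.0178). Alb therefore rose past the threshold in Combination. In that group it made up 0.0351%, 8.29% and 3.08% of all FPKM, and in Control at most 0.00539%.

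Hp encodes haptoglobin, which binds free haemoglobin in plasma, and Hpx encodes hemopexin, which binds free haem. Hp was at 361, 101 and 1218 FPKM in GC, at 145, 237 and 440 FPKM in ICB, at 41.9, 2655 and 1274 FPKM in Combination and at 25.9, 16.7 and 11.8 FPKM in Control. Hpx was at 236, 65.1 and 764 FPKM in GC, at 99.7, 219 and 621 FPKM in ICB, at 49.3, 3878 and 1556 FPKM in Combination and at 9.0, 8.37 and 1.20 FPKM in Control. For both genes every treated library lay above every Control library, and Combination replicate 1 was the lowest of the treated ones. Hpx rose in Combination (6.83 ± 1.44, limma adjusted p = 0.0226), and Hp differed by 4.85 ± 1.31 (limma adjusted p = 0.0617). In GC the differences were 4.28 ± 1.31 for Hp and 5.28 ± 1.44 for Hpx (limma adjusted p = 0.273 and 0.222).

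Orm1 encodes orosomucoid, an acid glycoprotein that binds drugs and lipids in plasma. It was at 118, 22.2 and 295 FPKM in GC, at 56.4, 101 and 192 FPKM in ICB, at 9.77, 1028 and 392 FPKM in Combination and at 5.06, 2.71 and 0.122 FPKM in Control. The treated and Control libraries did not overlap, and the difference in Combination was 5.80 ± 1.46 (limma adjusted p = 0.0506). Orm1 reads can be confused with those of its paralogue Orm2, since 20.4% of the 50-base words of the main Orm1 transcript occur in the Orm2 transcript. The group means of Orm2 came in the same order, and it was at 10.4 to 121 FPKM in GC, 20.99 to 70.9 FPKM in ICB, 3.31 to 180 FPKM in Combination and 0 to 1.02 FPKM in Control.

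Fga, Fgb and Fgg encode the alpha, beta and gamma chains of fibrinogen, the precursor of the fibrin clot. Fgb was at 294, 28.5 and 619 FPKM in GC, at 62.3, 171 and 253 FPKM in ICB, at 30.0, 3260 and 1155 FPKM in Combination and at 5.55, 5.16 and 0 FPKM in Control. Fga ranged over 13.7 to 269 FPKM in GC, 25.4 to 92.0 FPKM in ICB, 12.5 to 1802 FPKM in Combination and 0.103 to 1.96 FPKM in Control. Fgg ranged over 20.04 to 480 FPKM in GC, 36.2 to 136 FPKM in ICB, 19.9 to 2627 FPKM in Combination and 0.0957 to 3.89 FPKM in Control. In the 9 treated libraries the proportions of the 3 chains varied less than their level. FPKM of Fgb was 1.81 to 3.05 times that of Fga there, and FPKM of Fgg was 1.42 to 1.79 times that of Fga. In Control, where Fga was at most 1.96 FPKM, these ratios were 2.83, 2.83 and 0 for Fgb and 1.44, 2.13 and 0.933 for Fgg. All 3 chains rose in Combination, by 6.83 ± 1.53 for Fga, 7.16 ± 1.58 for Fgb and 7.01 ± 1.57 for Fgg (limma adjusted p = 0.0306, 0.0291 and 0.0307).

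Saa1 was at 9.51, 14.1 and 39.0 FPKM in GC, at 10.4, 9.34 and 80.1 FPKM in ICB, at 1.68, 309 and 116 FPKM in Combination and at 1.81, 3.19 and 0 FPKM in Control. Saa2 was at 2.66, 5.98 and 15.8 FPKM in GC, at 3.25, 2.57 and 40.9 FPKM in ICB, at 1.25, 237 and 84.0 FPKM in Combination and at 0, 2.55 and 0 FPKM in Control. Both were above Control in all GC and ICB libraries, whereas Combination overlapped Control through replicate 1. The differences from Control in Combination were 4.34 ± 1.46 for Saa1 and 4.55 ± 1.49 for Saa2 (limma adjusted p = 0.106 and 0.1). FPKM of Saa2 was 0.280 to 0.424 times that of Saa1 in GC, 0.275 to 0.510 times in ICB and 0.722 to 0.767 times in Combination. Their main transcripts share 572 of 606 aligned bases, and 13.2% of the 50-base words of Saa1 occur in Saa2, so the split between the pair is uncertain. Saa3 has 1.61% of the words of Saa1 and 0 of those of Saa2.

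Saa3 was at 36.0, 165 and 26.6 FPKM in GC, at 221, 132 and 1080 FPKM in ICB, at 24.4, 42.7 and 119 FPKM in Combination and at 434, 63.3 and 129 FPKM in Control. It was the only member with a Control mean (209 ± 198 FPKM, SD, n = 3) above its GC and Combination means (75.8 ± 77.2 and 62.0 ± 50.2 FPKM). Its differences from Control were -1.47 ± 0.97 in GC, 1.05 ± 0.97 in ICB and -1.59 ± 0.97 in Combination (limma adjusted p = 0.678, 1 and 0.294), all with overlapping libraries. Against ICB, Combination had Saa3 lower in all 3 libraries (-2.64 ± 0.97, limma adjusted p = 0.161), and so did 10.1% of tested genes.

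**Figure D2:**
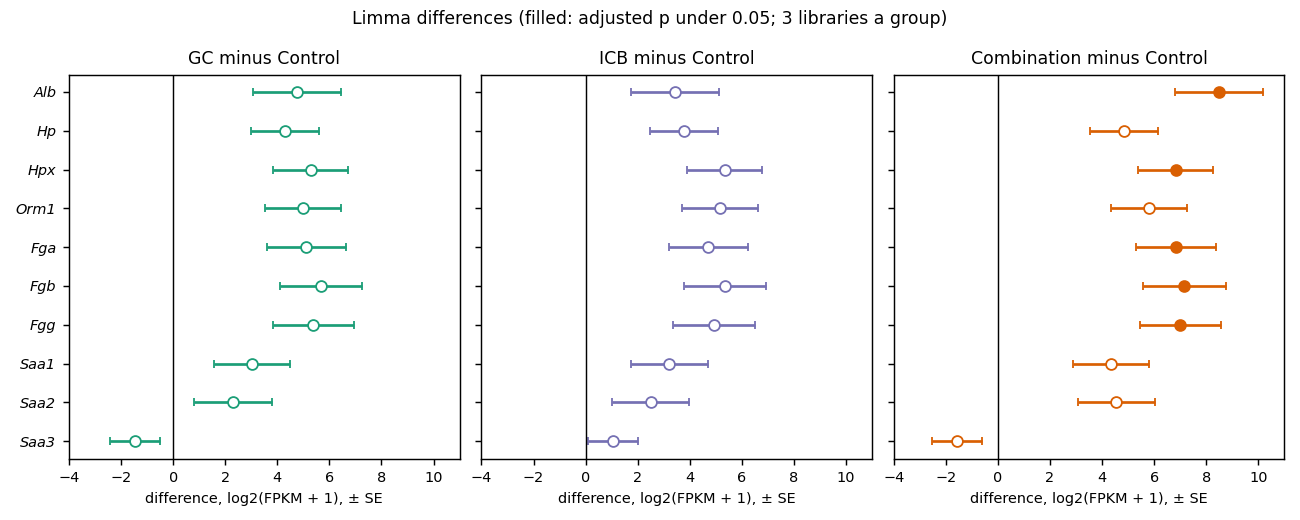
Difference of each treated group from Control on the log2(FPKM + 1) scale with its SE (limma, 3 libraries a group), where filled points have an adjusted p under 0.05. The 9 other genes are right of 0 in the 3 panels, and the filled points are Alb (8.49), Hpx, Fga, Fgb and Fgg in Combination, while Saa3 is left of 0 in GC (-1.47) and Combination (-1.59).

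Counted together, 5 of the 10 members rose and 0 fell in Combination against Control, where 3.55% of 12765 tested genes were called higher and 0.4% lower. In the same comparison 9 members had an unadjusted p under 0.05 (26.3% of tested genes). In GC against Control 0 of 10 were called, with 7 at an unadjusted p under 0.05 (9.86% of tested genes), and in ICB against Control 0 of 10 were called, with 7 at an unadjusted p under 0.05 (1.75% of tested genes). Limma called 0.00783% of tested genes in GC against Control and 0% in ICB against Control. All 10 members passed the minimum mean of 1 FPKM, and 9 of them also in the Control libraries alone. Members whose treated libraries were all above all Control libraries numbered 9 in GC, 9 in ICB and 7 in Combination, against 18.6%, 4.65% and 9.74% of tested genes. The median difference of the members was 4.87 in GC, 4.24 in ICB and 6.31 in Combination, and that of all tested genes was 0.09, -0.06 and -0.29. Control libraries are shared by these comparisons.

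The calls rested on single libraries. Without Combination replicate 1, 9 of 10 members rose in Combination against Control (all but Saa3), where 11.1% of tested genes were called higher. In the same setting 7 of 10 rose in GC against Control (Alb, Hp, Hpx, Orm1, Fga, Fgb and Fgg, limma adjusted p from 0.0244 to 0.0346), where 2.28% of tested genes were called higher. In contrast, 0 members were called in Combination against Control without Combination replicate 2 or 3 or Control replicate 2 or 3, 1 without Control replicate 1 and 2 without ICB replicate 2. With only ICB and Control libraries in the fit, 6 members (Hp, Hpx, Orm1, Fga, Fgb and Fgg) rose in ICB, where 0.283% of tested genes were called higher, and with only Combination and Control libraries in the fit 0 were called in Combination. Without the muscle-rich GC replicate 2 and Control replicate 2, a setting added after the data were seen, 0 were called in Combination against Control.

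Whether one treatment added to the other was read from Combination against GC and against ICB. Alb differed by 3.75 ± 1.69 from GC and by 5.05 ± 1.69 from ICB (limma adjusted p = 0.3 and 0.132), and Combination replicate 1 lay among the single-treatment libraries. In both comparisons 0 of 10 members were called, where 0.666% of tested genes were called against GC and 2.24% against ICB. At an unadjusted limma p under 0.05 stood 1 member against GC (16.5% of tested genes) and 2 against ICB (20.5% of tested genes). The median over the members was 1.52 against GC and 1.64 against ICB, and over all tested genes -0.36 and -0.21. Without Combination replicate 1, 6 members rose against GC (Alb, Saa1, Saa2, Hpx, Fga and Fgg), where 8.87% of tested genes were called higher. In the same setting 8 members rose against ICB (all but Orm1 and Saa3), where 10.2% of tested genes were called higher. The interaction of the treatments was called for 0 of 10 members (0.0157% of tested genes), with 0 at an unadjusted p under 0.05 (8.09% of tested genes). Its estimates were between -4.35 (Orm1) and 0.31 (Alb).

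Saa3 was then set against the hepatocyte forms within each library, where the scaling of the library nearly cancels. The difference of log2(FPKM + 1) between Saa3 and Alb was -2.89 ± 2.54 in GC, 0.93 ± 1.83 in ICB, -6.75 ± 3.47 in Combination and 3.33 ± 1.85 in Control (SD, n = 3 each). It differed among the 4 groups (F = 9.27, exact permutation test over 369600 rearrangements, p = 0.00526, 0.0105 adjusted over 2 tests). Combination against Control was 8.49 for Alb and -1.59 for Saa3, which was not called in any comparison. The test therefore cannot tell a change of Saa3 from a change of Alb, and the test with Saa1 has the same limit. All 3 Control libraries had more Saa3 than Alb, and all GC and Combination libraries had less. The difference between Saa3 and Saa1 was 1.58 ± 2.01 in GC, 3.90 ± 0.33 in ICB, 0.15 ± 3.04 in Combination and 6.08 ± 1.86 in Control (F = 4.85, exact permutation test, p = 0.0279, 0.0279 adjusted). For Saa1 the p was 0.0865 without Control replicate 1, 0.0834 without Control replicate 3, 0.0573 without Combination replicate 3, and 0.0508 to 0.0518 without any 1 of the ICB replicates. With rearrangements only within the replicate numbers of the titles, the exact permutation p for Saa1 was 0.0521. Within the numbers of the sample descriptions it was 0.0463.

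Of the summed FPKM of Saa1, Saa2 and Saa3, Saa3 made up 74.7%, 89.2% and 32.7% in GC, 94.2%, 91.7% and 89.9% in ICB, 89.3%, 7.24% and 37.3% in Combination and 99.6%, 91.7% and 100% in Control. Saa3 was thus the main form in 9 of 12 libraries. The 3 libraries where the hepatocyte forms prevailed were GC replicate 3 and Combination replicates 2 and 3, which had the highest means of the hepatocyte list (4.57, 8.45 and 7.34). The sum of the 3 forms was highest in ICB replicate 3 (1201 FPKM) and lowest in Combination replicate 1 (27.3 FPKM).

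**Figure D3:**
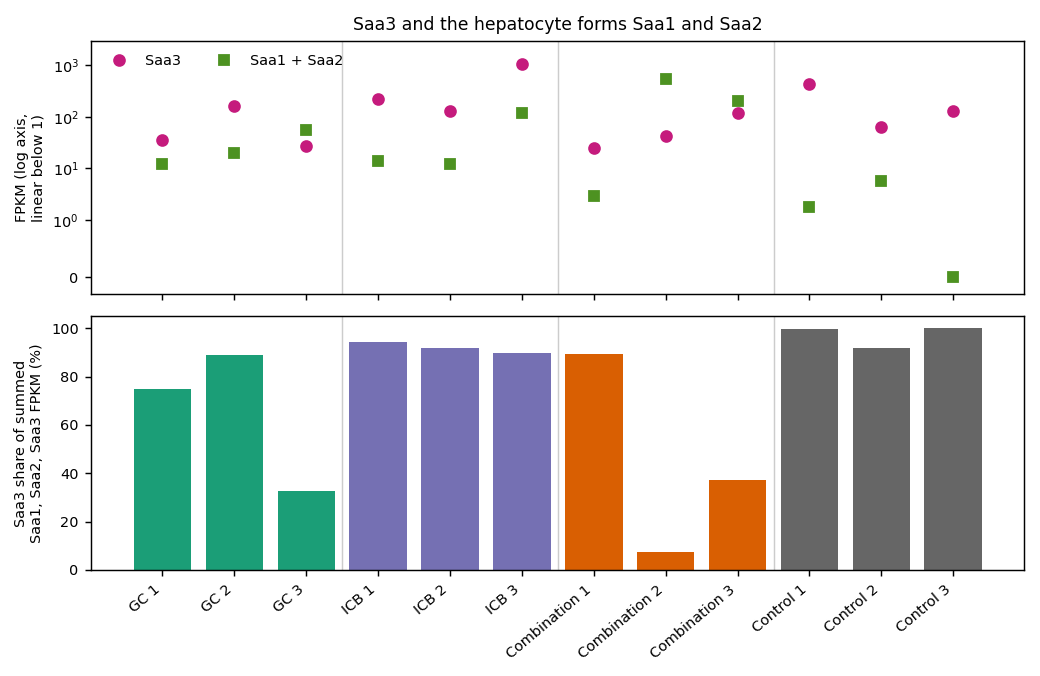
Top, FPKM of Saa3 and of Saa1 plus Saa2 in each library (log axis, linear below 1), and bottom, Saa3 as a percent of the 3 forms summed, both by library and group. Saa3 makes up at least 89.9% in ICB and 91.7% in Control, and 32.7%, 7.24% and 37.3% in GC replicate 3 and Combination replicates 2 and 3.

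Markers of macrophages, adipocytes and epithelia, and also of neutrophils and mesothelium, were read beside Saa3. The neutrophil list (10 genes in the table) had mean log2 values of 2.03, 2.48 and 1.73 in GC, 1.98, 2.19 and 4.46 in ICB, 2.03, 1.65 and 2.14 in Combination and 1.5, 1.19 and 2.49 in Control. ICB replicate 3 led both this list and Saa3, but Control replicate 1, second in Saa3, was among the lowest of this list (1.5). The macrophage list (12 genes) lay between 5.66 and 6.12 in GC, 4.77 and 5.63 in ICB, 4.64 and 5.66 in Combination and 3.78 and 5.51 in Control. It was lowest in Control replicate 1, the library with the second highest Saa3. The biliary and tumour list (10 genes) was at 3.78, 2.80 and 4.33 in GC, 2.94, 3.36 and 3.97 in ICB, 5.41, 3.57 and 4.04 in Combination and 3.58, 2.28 and 2.24 in Control. This epithelial list was highest in Combination replicate 1, which held small intestinal transcripts and had the lowest Saa3. The 8 genes of the adipocyte list summed to 47.1 to 103 FPKM in GC, 64.5 to 125 FPKM in ICB, 26.5 to 46.6 FPKM in Combination and 37.6 to 95.6 FPKM in Control. Most of that sum was Fabp4 (22.5 to 121 FPKM over the 12 libraries), which macrophages and endothelium also express. The defining adipocyte genes Adipoq and Plin1 were at most 0.349 FPKM, Lep was listed at 0 throughout, and Cidec reached 9.05 FPKM in Combination replicate 1. Msln, mesothelin, of the mesothelial list fell in Combination (62.5, 5.23 and 12.9 FPKM, against 136, 111 and 262 FPKM in Control, difference -3.17 ± 0.72, limma adjusted p = 0.0328). It was the 1 gene called lower among the 3 tested of that list of 8 (0.4% of all tested genes were called lower), and Upk3b, another mesothelial marker, was at most 4.27 FPKM. The rest of the list was mixed. Wt1 went the way of Msln but overlapped, at 0.916, 0.365 and 2.25 FPKM in Combination and 5.89, 1.73 and 0.805 FPKM in Control. Slc39a8 was at 1.17, 7.30 and 3.60 FPKM in Combination and 1.46, 0.763 and 0.872 FPKM in Control. Upk3b, Upk1b and Lrrn4 were listed at 0 in Control replicate 3, where Msln was highest. Genes of the list thus went both ways, and Msln alone was not taken as a measure of mesothelial cells. The part of these cells in the Saa3 level was not tested.

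The genes with profiles most like a member's over the 12 libraries were ranked by the root mean square difference of their centred profiles. Nearest to Saa3 were the neutrophil-attracting chemokine Cxcl2 (0.78 on the log2 scale), Mir7035, Mir6955, the chemokine Cxcl3 (0.93) and Mir6953, against a spread of 1.57 of Saa3 itself. Cxcl2 was at 3.81, 15.8 and 3.81 FPKM in GC, 18.5, 18.4 and 30.8 FPKM in ICB, 0.856, 0.566 and 4.13 FPKM in Combination and 22.2, 3.70 and 6.48 FPKM in Control. In the order of likeness to Saa3 over the 12765 tested genes, Alb came at place 12762, and Saa1, the nearest member, at 12424. The profiles were not scaled, so a gene of much larger spread than Saa3 is placed far from it whatever its pattern. The spread was 3.64 for Alb and 2.37 for Saa1, so these places do not tell a different pattern from a larger spread. Nearest to Alb were 4 alpha-1-antitrypsin paralogues (Serpina1c, Serpina1b, Serpina1a and Serpina1d, 0.61 to 0.71) and the apolipoprotein Apoc1 (0.67), against a spread of 3.64. Near-identical copies make the split among the Serpina1 genes uncertain. Nearest to Hp were Itih3 (0.43), Kng2, Orm2, Apcs and Fetub (0.60), which encode plasma proteins. Nearest to Saa1 were Saa2 (0.56), the complement protein C3 (0.74), the carboxypeptidase Cpb2, Acat3 and Hp (0.91).

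Within a library the members kept different proportions to albumin. Per 100 FPKM of Alb, Hp was at 81.8, 58.0 and 136 in GC, at 348, 82.4 and 119 in ICB, at 19.3, 5.85 and 7.56 in Combination and at 73.5, 69.3 and 398 in Control. Each Combination library was below every library of the other groups. Hpx had the same split, with 37.4 to 85.6 in GC, 76.1 to 239 in ICB, 8.54 to 22.7 in Combination and 25.6 to 40.6 in Control. Orm1 was at 12.8 to 33.0 in GC, 34.9 to 135 in ICB, 2.26 to 4.50 in Combination and 4.13 to 14.4 in Control. The 3 fibrinogen chains together were at 35.8 to 153 in GC, 121 to 297 in ICB, 14.8 to 28.7 in Combination and 6.72 to 45.2 in Control. Combination was thus below GC and ICB for each of these ratios, and overlapped Control for Orm1 and fibrinogen. These proportions were described after their values were seen and carry no test.

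**Figure D4:**
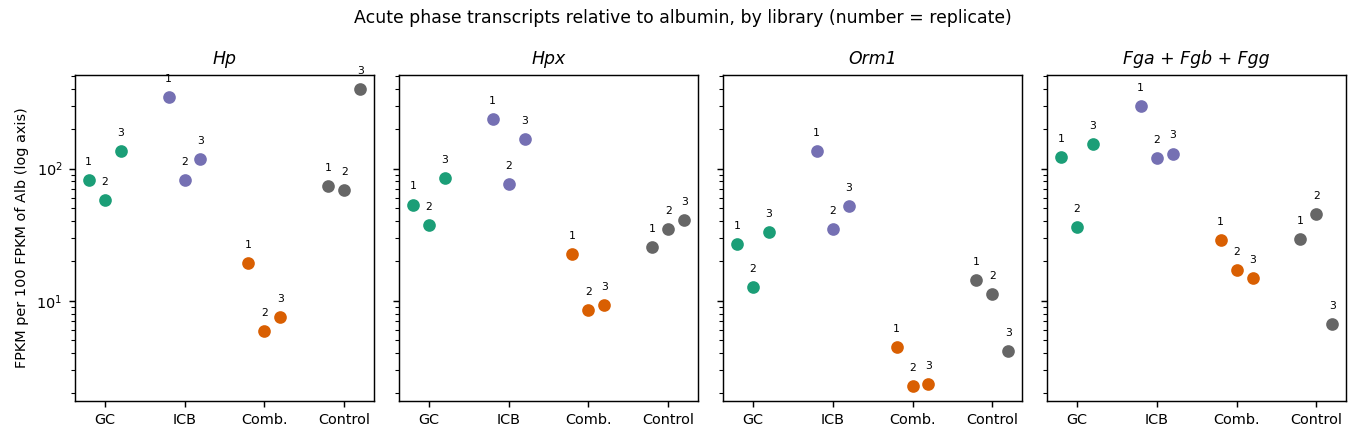
FPKM of Hp, Hpx, Orm1 and the summed fibrinogen chains per 100 FPKM of Alb in each library (log axis), with points numbered by replicate and coloured by group. For Hp the Combination libraries lie at 19.3, 5.85 and 7.56, below the 58.0 to 136 of GC, the 82.4 to 348 of ICB and the 69.3 to 398 of Control.

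Other genes of the acute phase response were read from lists. Of 36 other positive acute phase genes, 17 rose and 0 fell in Combination against Control, where 3.55% of tested genes were called higher. The median was 4.87, and 0 were called in GC (median 2.76) or ICB (median 2.38). Examples were the mannose-binding lectin Mbl2 (6.93 ± 0.91), the kininogen Kng1 (7.29 ± 1.35), complement factor B, Cfb (5.09 ± 0.97), and the iron hormone hepcidin, Hamp (7.51 ± 1.45), with limma adjusted p of 0.00146, 0.0125, 0.0143 and 0.0151. Of 15 negative acute phase genes, 12 rose and 0 fell in Combination (median 6.76), among them the apolipoproteins Apoa1 (9.74 ± 1.06), Apom (5.97 ± 1.18) and Apoa2 (7.80 ± 1.57) and the thyroxine carrier Ttr (7.97 ± 1.56). Positive and negative genes of the response thus stood higher together. Their limma adjusted p were 0.000553, 0.0171, 0.0189 and 0.0165, and 0 of the 15 were called in GC (median 3.95) or ICB (median 2.56). Apoa1 stood apart in Combination replicate 1, the library with small intestinal transcripts. It was at 3721 FPKM there, beside 64.2 FPKM of Apoa2, 23.1 FPKM of Ttr and 6.06 FPKM of Apom. Mbl2 was at 19.5 FPKM in the same library, above its highest value in GC (13.7 FPKM) and in ICB (1.28 FPKM). Kng1, Cfb and Hamp were at 17.5, 17.1 and 19.2 FPKM there, below their GC highs of 175, 78.4 and 136 FPKM. The part of intestinal tissue in the Apoa1 and Mbl2 differences was not tested.

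The 25 tested genes of interleukin 6 and interleukin 1 signalling had median differences from Control of 0.21 in GC, 0.12 in ICB and -0.03 in Combination, and 0 were called in GC or ICB. Socs3, the feedback inhibitor induced by STAT3 and picked here after its values were seen, was at 44.1, 58.1 and 49.6 FPKM in GC, 48.8, 46.3 and 67.5 FPKM in ICB, 34.2, 7.84 and 37.6 FPKM in Combination and 46.1, 48.2 and 33.7 FPKM in Control. Its lowest value was in Combination replicate 2, the library highest in 9 members. Genes of the list went both ways in that library. Il1rap was highest there at 30.8 FPKM. Cebpb was at 184 FPKM there, inside its Control range of 145 to 226 FPKM, so it did not set that library apart. Cebpb varied widely within groups. It was at 10.1 and 5.96 FPKM in Combination replicates 1 and 3, and at 5.48 and 257 FPKM in ICB replicates 1 and 3. The fibroblast gene Col1a1 was also lowest in Combination replicate 2 (69.5 FPKM), and the part of tissue content in the Socs3 value was not tested. The cytokine Il6 itself was at most 3.53 FPKM, and was listed at 0 in Combination replicate 2 and Control replicate 1.

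Of the 20 hepatocyte genes without plasma proteins, 13 rose and 0 fell in Combination against Control (median 5.75), and 0 were called in GC (median 2.65) or ICB (median 0.75). Among them were the gluconeogenic enzyme Pck1 (7.42 ± 0.84), the hepatocyte factor Hnf4a (5.62 ± 0.70) and the cytochrome Cyp3a11 (7.71 ± 1.04), with limma adjusted p of 0.000665, 0.00106 and 0.00175. Against ICB 7 of them rose in Combination, where 2.05% of tested genes were called higher. Of 14 tested small intestinal genes 3 were called higher in Combination against Control, beside 3.55% of all tested genes. They were Fabp2 (7.23 ± 1.14), the aminopeptidase Anpep (3.51 ± 0.58) and the apolipoprotein Apoa4 (7.73 ± 1.35), with limma adjusted p of 0.00484, 0.00671 and 0.00917. The intestinal list as a whole (17 genes) had mean log2 values of 6.18, 1.64 and 1.44 in Combination replicates 1 to 3. Lct and Cdx2 of that list were above 0 only in replicate 1 (32.97 and 7.88 FPKM). The called genes were also above Control in replicates 2 and 3, as for Fabp2 (70.3 and 31.01 FPKM). The part of intestinal and of liver tissue in these calls was not tested. Of 9 tested biliary and tumour genes 1 was called higher, the keratin Krt8 (4.88 ± 0.88, limma adjusted p = 0.0109), a count too small to set apart from that 3.55%. In the macrophage, neutrophil, fibroblast, adipocyte and skeletal muscle lists 0 genes were called in the 3 comparisons with Control.

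**Figure D5:**
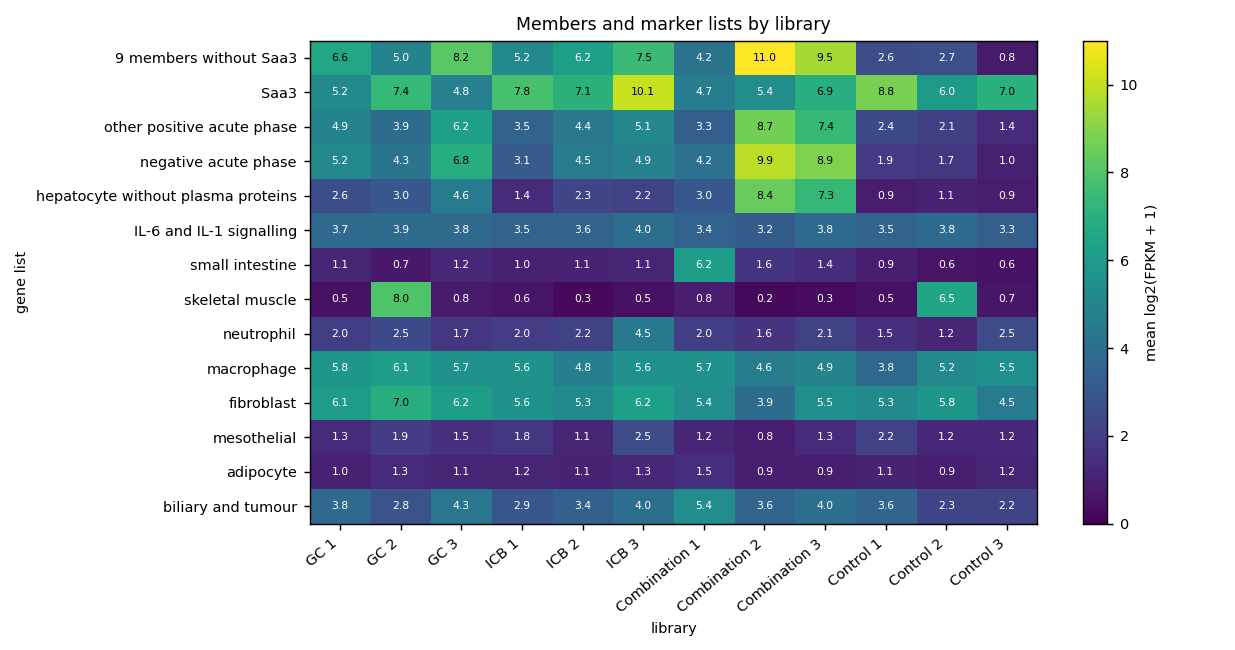
Mean log2(FPKM + 1) of the 9 members without Saa3, of Saa3 alone and of 12 marker and pathway lists (rows) in the 12 libraries (columns). The 9 members are at 10.98 and 9.53 in Combination replicates 2 and 3, where the hepatocyte list is at 8.45 and 7.34, and ICB replicate 3 has 7.50 for the members beside 2.15 for the hepatocyte list.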

How the data were processed

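Bulk RNA sequencing values of 12 tumour libraries in 4 groups of 3 were analysed. The authors deposited FPKM (fragment counts scaled by gene length and library total), 1 value per gene symbol and library, with column names that matched the descriptions of the samples. The submitters' processing notes name the genome mm10 and the tools HTSeq, SAMtools, HISAT2, cutadapt and FastQC. Versions, the step that made FPKM, the handling of reads that fit several genes and the use of strand are not given in the sources used here. Values up to 0.1 FPKM showed no steps of whole reads: over 66 library pairs the fullest bin of log2 ratios held at most 17.3% of genes. The depth is therefore unknown, no counting interval is given and no count model was used.

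Groups and replicate numbers were taken from the titles. Tests ran on log2(FPKM + 1), using limma 3.58.1 under R 4.3.3, with group means of all 12 libraries, 8 residual degrees of freedom, empirical Bayes moderation and an intensity trend. A mean of at least 1 FPKM was required (12765 of 24421 symbols), and p-values were adjusted over all tested genes by the Benjamini-Hochberg method at 0.05. Alternatives were another pseudocount, filter, trend and scaling (trimmed mean of M-values, TMM, computed on FPKM), a replicate block, only the groups compared, and each library left out. Within-library differences of Saa3 from Alb and Saa1 were tested with an exact permutation test of the one-way F over all 369600 rearrangements of the libraries. Both steps were tested on simulated data. Likeness to Alb, Saa1, Saa3 and Hp was the root mean square difference between centred log2(FPKM + 1) profiles over the 12 libraries, and the rule took the 5 nearest genes each, leaving out clone and model names. In each comparison the rule also took up to 4 called genes of smallest p from each of 12 further lists (183 entries, 182 in the table). The members and lists were chosen with earlier results of these data known. Locations come from GENCODE M21 (GRCm38) and promoter sequence from RefSeq (GRCm38.p6), where 8 of the 10 members had a window. The p-values measure the spread between these libraries, because the labels do not tie them to separate animals. A few results under this rule are left unreported.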

Additional observations from a re-analysis of the deposited data

How the results depend on the processing

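Every called member missed the threshold under at least 1 setting, and the direction of the 9 genes other than Saa3 against Control held in all settings run. Of 1250 values for single members under alternative settings, 1141 kept their direction and side of the threshold, 37 came to pass it, 41 lost it and 31 changed sign. Called genes numbered 1 in GC against Control, 0 in ICB against Control, 504 in Combination against Control, 85 in Combination against GC, 286 in Combination against ICB and 2 for the interaction. With a pseudocount of 0.1 FPKM they were 16 in Combination against GC and 0 for the interaction. With no filter they were 3 in GC against Control and 7 for the interaction, and 1 member was called in Combination against Control. With a mean of at least 10 FPKM they were 3 in GC against Control, 268 in Combination against Control, 3 in Combination against GC, 84 in Combination against ICB and 0 for the interaction. Without the intensity trend they were 0 in GC against Control and 9 for the interaction. With TMM scaling they were 0 in GC against Control and 51 in Combination against GC. TMM moved the median of all genes to -0.04 from -0.29 in Combination against Control and to -0.01 from -0.36 in Combination against GC, and turned Saa3 to 0.30 in Combination against GC and Saa2 to 0.10 in the interaction. With only the groups compared in the fit they were 17 in GC against Control, 34 in ICB against Control (6 members), 89 in Combination against Control (0 members), 3 in Combination against GC and 37 in Combination against ICB. Without the muscle-rich GC replicate 2 and Control replicate 2, a setting chosen after seeing the data, they were 0 in GC against Control, 165 in Combination against Control (0 members), 20 in Combination against GC, 158 in Combination against ICB and 0 for the interaction. In that setting Combination against GC was 0.68 for Saa3, -0.34 for Hp and -0.20 for Orm1, and the interaction was -0.66 for Alb and 0.26 for Saa3. The cause of these changes was not tested.

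Whether the replicate numbers of the titles pair the libraries was not settled. Over 18 same-numbered pairs the correlation of deviations from the group means ran from -0.24 to 0.42, and 8 were over 0.1. The highest was between the muscle-rich GC replicate 2 and Control replicate 2. Pairs of different number were not read beside these, so the check cannot decide on pairing. With a replicate block the called genes were 3 in GC against Control, 53 in Combination against GC and 0 for the interaction, and 5 members were called in Combination against Control. With the block, the F of 4.85 for Saa3 minus Saa1 had an exact permutation p of 0.0521 and the F of 9.27 for Saa3 minus Alb one of 0.0174. The sample descriptions carry other numbers, for which the check has the same limit. Over 13 same-numbered pairs the correlation ran from -0.25 to 0.29, and 4 were over 0.1. With a replicate block on those numbers, chosen after seeing the data, 9 members were called in Combination against Control, and called genes were 31 in Combination against GC, 131 in Combination against ICB and 0 for the interaction. The interaction of Alb was then -0.60, and the exact permutation p was 0.0139 for Saa3 minus Alb and 0.0463 for Saa3 minus Saa1.

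Leaving out each library in turn, called genes ranged from 0 to 293 in GC against Control, 221 to 3322 in Combination against Control, 24 to 3148 in Combination against GC, 108 to 2166 in Combination against ICB and 0 to 865 for the interaction, and stayed at 0 in ICB against Control. Called members ranged from 0 to 7 in GC against Control, 0 to 9 in Combination against Control, 0 to 6 in Combination against GC and 0 to 8 in Combination against ICB. The F ranged from 6.47 to 14.7 for Saa3 minus Alb and from 3.17 to 9.15 for Saa3 minus Saa1. Log2 differences that changed sign ranged, in Combination against GC, from -0.062 to 3.37 for Saa1, -0.73 to 0.68 for Saa3, -0.60 to 2.37 for Hp and -0.52 to 2.76 for Orm1. In Combination against ICB they ranged from -0.26 to 3.17 for Saa1, -0.088 to 2.89 for Hp and -0.68 to 2.61 for Orm1. For the interaction they ranged from -1.21 to 2.64 for Alb, -3.29 to 0.14 for Saa1 and -1.62 to 1.74 for Saa2. The depth of the libraries is unknown, so values near 0 carry no counting limit.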
